A study of Mus musculus with 16 samples.

Results

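The genes described here are 40 genes of DNA replication and mitosis, 23 that act around S phase and 17 that act in G2 and mitosis. They were named as a list by symbol, with earlier results of these data known. Each was taken from the probe sets that the array annotation gives exactly 1 gene symbol. All 40 were found among the 19938 genes tested. The samples were colonic epithelial cells of 70-day-old C57BL/6 mice, measured on whole-transcript expression arrays. Secretory IgA (SIgA) reaches the gut of a pup in its mother's milk (passive SIgA) and later by the pup's own transport across the epithelium (active SIgA), and each transport needs the polymeric immunoglobulin receptor, Pigr. Pigr-/- dams gave no passive SIgA and Pigr+/- dams gave it. Pigr-/- offspring lacked active SIgA and Pigr+/- offspring had it. The 4 kinds of mice are therefore Pigr-/- offspring of Pigr-/- dams (neither source), Pigr+/- offspring of Pigr-/- dams (active SIgA only), Pigr-/- offspring of Pigr+/- dams (passive SIgA only) and Pigr+/- offspring of Pigr+/- dams (both sources). Each kind was studied after 2% dextran sulfate sodium (DSS) in the drinking water for 8 days, which injures the colonic epithelium, and untreated, which gives 8 groups. Each group had 2 arrays, and each array held RNA pooled from 3 mice. All offspring, those with both sources included, carry at least 1 null allele of Pigr, so no group is wild type. Mice were matched for sex, per the labels. Passive SIgA followed the dam's genotype, so littermates share it, and the labels do not say which mice shared a litter. The p-values here measure the spread between pools.

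The colonic epithelium is renewed from dividing cells near the base of its crypts, and their daughters stop dividing as they move up to the surface. Before S phase the Mcm helicase is loaded onto replication origins. During S phase deoxynucleotides are made, the helicase opens the DNA, the PCNA clamp holds the polymerases and new histones are placed behind the fork. In G2 and mitosis cyclins with Cdk1, the Aurora and Polo kinases, the spindle motors and the spindle checkpoint separate the copies. Many S phase genes are switched on through E2F sites in their promoters, and many G2 and mitosis genes are held down in resting and G1 cells by a complex that binds a cell cycle homology region (CHR), often beside CCAAT boxes.

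The promoters of 32 of the 40 members were read as 35 windows of 300 bases (250 before to 50 after the annotated start, RefSeq, GRCm38.p6), and those of Usp1, Foxm1, Ccna2, Gins1, Mcm4, Gins2, Aurkb and Kif20a were not analysed here. These windows were searched on both strands for 4 E2F words (TTTCCCGC, TTTCGCGC, TTTGCCGC and TTTGGCGC), for the CHR word TTTGAA and for CCAAT. An E2F word stood in 8 of the 22 S phase windows (36.4%) and in 1 of the 13 G2 and mitosis windows (7.69%), against 2.26% of 32851 windows of all genes. The CHR word stood in 2 of the 22 S phase windows (9.09%) and in 10 of the 13 G2 and mitosis windows (76.9%), against 17.9% of all windows. CCAAT stood in 13 of 22 S phase windows (59.1%) and 11 of 13 G2 and mitosis windows (84.6%), against 37.4% of all windows. E2F words were thus commoner in the S phase windows and CHR words in the G2 and mitosis windows; the choice of members did not use these words, and no test was made. A match is a description of letters, not a bound site, and no word shows only that these letters are not in the window.

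The S phase promoters shown first are those of Rrm2, Rad18 and Asf1b, the members of that list with the smallest p for the DSS difference that have an entry. Those of Mcm6 and Pclaf follow as windows with an E2F word, chosen after the words had been counted. Each runs 5′ to 3′ on the gene's strand, 230 bases with 200 before and 30 after the start, and capitals mark E2F, CHR and CCAAT words or their reverse complements.
Rrm2, chr12:24708054-24708283, plus strand: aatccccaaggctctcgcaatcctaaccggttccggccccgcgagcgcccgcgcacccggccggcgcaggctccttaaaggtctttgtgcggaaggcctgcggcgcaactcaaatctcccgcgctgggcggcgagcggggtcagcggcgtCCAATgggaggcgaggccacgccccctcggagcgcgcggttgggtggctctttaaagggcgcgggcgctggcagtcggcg
Rad18, chr6:112696641-112696870, minus strand: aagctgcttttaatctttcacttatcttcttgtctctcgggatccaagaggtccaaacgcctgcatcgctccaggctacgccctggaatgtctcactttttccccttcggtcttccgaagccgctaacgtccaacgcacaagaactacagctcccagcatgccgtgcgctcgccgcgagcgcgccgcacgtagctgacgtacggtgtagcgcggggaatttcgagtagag
Asf1b, chr8:83955494-83955723, plus strand: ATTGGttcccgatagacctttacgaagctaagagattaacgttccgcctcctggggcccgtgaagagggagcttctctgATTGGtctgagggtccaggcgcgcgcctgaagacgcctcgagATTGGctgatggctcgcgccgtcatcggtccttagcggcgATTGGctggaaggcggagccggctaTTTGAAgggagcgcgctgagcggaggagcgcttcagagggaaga
Mcm6, chr1:128359676-128359905, minus strand: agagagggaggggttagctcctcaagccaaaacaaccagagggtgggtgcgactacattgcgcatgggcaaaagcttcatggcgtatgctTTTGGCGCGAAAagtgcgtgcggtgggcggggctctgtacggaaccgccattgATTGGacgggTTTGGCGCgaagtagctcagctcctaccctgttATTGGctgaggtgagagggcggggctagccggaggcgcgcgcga
Pclaf, chr9:65890123-65890352, plus strand: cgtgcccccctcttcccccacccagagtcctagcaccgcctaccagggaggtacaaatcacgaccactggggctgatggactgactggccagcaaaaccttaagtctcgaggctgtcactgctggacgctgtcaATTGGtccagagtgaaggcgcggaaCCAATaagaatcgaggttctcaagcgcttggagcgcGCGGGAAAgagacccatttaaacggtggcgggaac
Mcm6 holds 2 overlapping E2F words that begin 110 and 106 bases before the start and another that begins 47 bases before it. Pclaf holds an E2F word 5 bases before the start, on the reverse strand. Asf1b holds no E2F word but 4 CCAAT words and a CHR word. Rad18, which rose after DSS, holds none of the words.

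The G2 and mitosis promoters shown are Birc5, Cenpa and Plk1, by the same rule, and Ccnb2 and Cdk1 as windows with 2 CHR words and several CCAAT words, chosen after the words had been counted.
Birc5, chr11:117849037-117849266, plus strand: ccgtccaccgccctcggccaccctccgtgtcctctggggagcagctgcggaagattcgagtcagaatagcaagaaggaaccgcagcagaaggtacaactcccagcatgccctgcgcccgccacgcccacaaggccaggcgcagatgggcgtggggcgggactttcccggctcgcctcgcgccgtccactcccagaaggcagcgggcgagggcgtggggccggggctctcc
Cenpa, chr5:30666686-30666915, plus strand: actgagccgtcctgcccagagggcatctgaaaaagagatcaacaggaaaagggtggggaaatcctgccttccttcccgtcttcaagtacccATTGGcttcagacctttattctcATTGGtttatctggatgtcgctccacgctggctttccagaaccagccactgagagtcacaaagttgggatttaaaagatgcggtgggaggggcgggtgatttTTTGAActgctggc
Plk1, chr7:122159235-122159464, plus strand: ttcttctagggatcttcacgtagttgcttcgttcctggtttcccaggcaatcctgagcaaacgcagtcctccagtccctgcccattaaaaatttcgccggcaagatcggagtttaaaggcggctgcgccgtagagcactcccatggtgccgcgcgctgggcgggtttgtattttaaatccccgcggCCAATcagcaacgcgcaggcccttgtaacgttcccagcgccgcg
Ccnb2, chr9:70421525-70421754, minus strand: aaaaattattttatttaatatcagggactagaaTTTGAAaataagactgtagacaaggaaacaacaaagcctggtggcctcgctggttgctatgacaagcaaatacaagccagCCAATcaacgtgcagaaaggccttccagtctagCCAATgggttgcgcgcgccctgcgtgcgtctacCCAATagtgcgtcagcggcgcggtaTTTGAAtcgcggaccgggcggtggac
Cdk1, chr10:69352883-69353112, minus strand: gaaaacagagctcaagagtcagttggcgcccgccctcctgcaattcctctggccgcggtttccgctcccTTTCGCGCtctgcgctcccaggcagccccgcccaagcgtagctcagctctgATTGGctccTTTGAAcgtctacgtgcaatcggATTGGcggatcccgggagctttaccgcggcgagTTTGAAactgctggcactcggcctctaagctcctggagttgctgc
Ccnb2 has CCAAT words 87, 54 and 21 bases before the start, with CHR words on either side of them. Of the 13 G2 and mitosis windows read, that of Cdk1 alone also holds an E2F word, 131 bases before the start. Birc5, which rose after DSS, holds none of the words.

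The deposited values were normalized log2 intensities, and the medians of the 16 arrays lay between 6.68 and 6.83. The labels were checked with Pigr, which read 11.34 to 11.70 on the 8 arrays of Pigr-/- offspring and 12.18 to 12.46 on the 8 arrays of Pigr+/- offspring. This separates the genotypes, at an averaged difference of -0.85, but does not show that the transcript is absent in Pigr-/- offspring. The epithelial label was checked with Epcam, the epithelial adhesion molecule, which lay between 12.35 and 12.67 on all 16 arrays. Replicate arrays correlated at 0.986 to 0.996 over all genes. The 2 untreated arrays with both SIgA sources stood apart. There, 1275 chemosensory receptor and keratin-associated genes averaged 5.26 and 5.41, and 4.45 to 4.87 on the other 14 arrays. The averaged comparisons that include these 2 arrays are therefore also given without them. Each average is then taken over the comparisons left, and the untreated passive difference is that of Pigr-/- offspring alone. Among DSS-treated mice with active SIgA only, replicate 2 was low for the mitotic genes, with a mean over the 17 genes of 8.25, while replicate 1 had 9.01. No hybridisation batch or date was given. Since the cells are measured in bulk, fewer dividing cells and less RNA per dividing cell cannot be told apart.

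**Figure D1:**
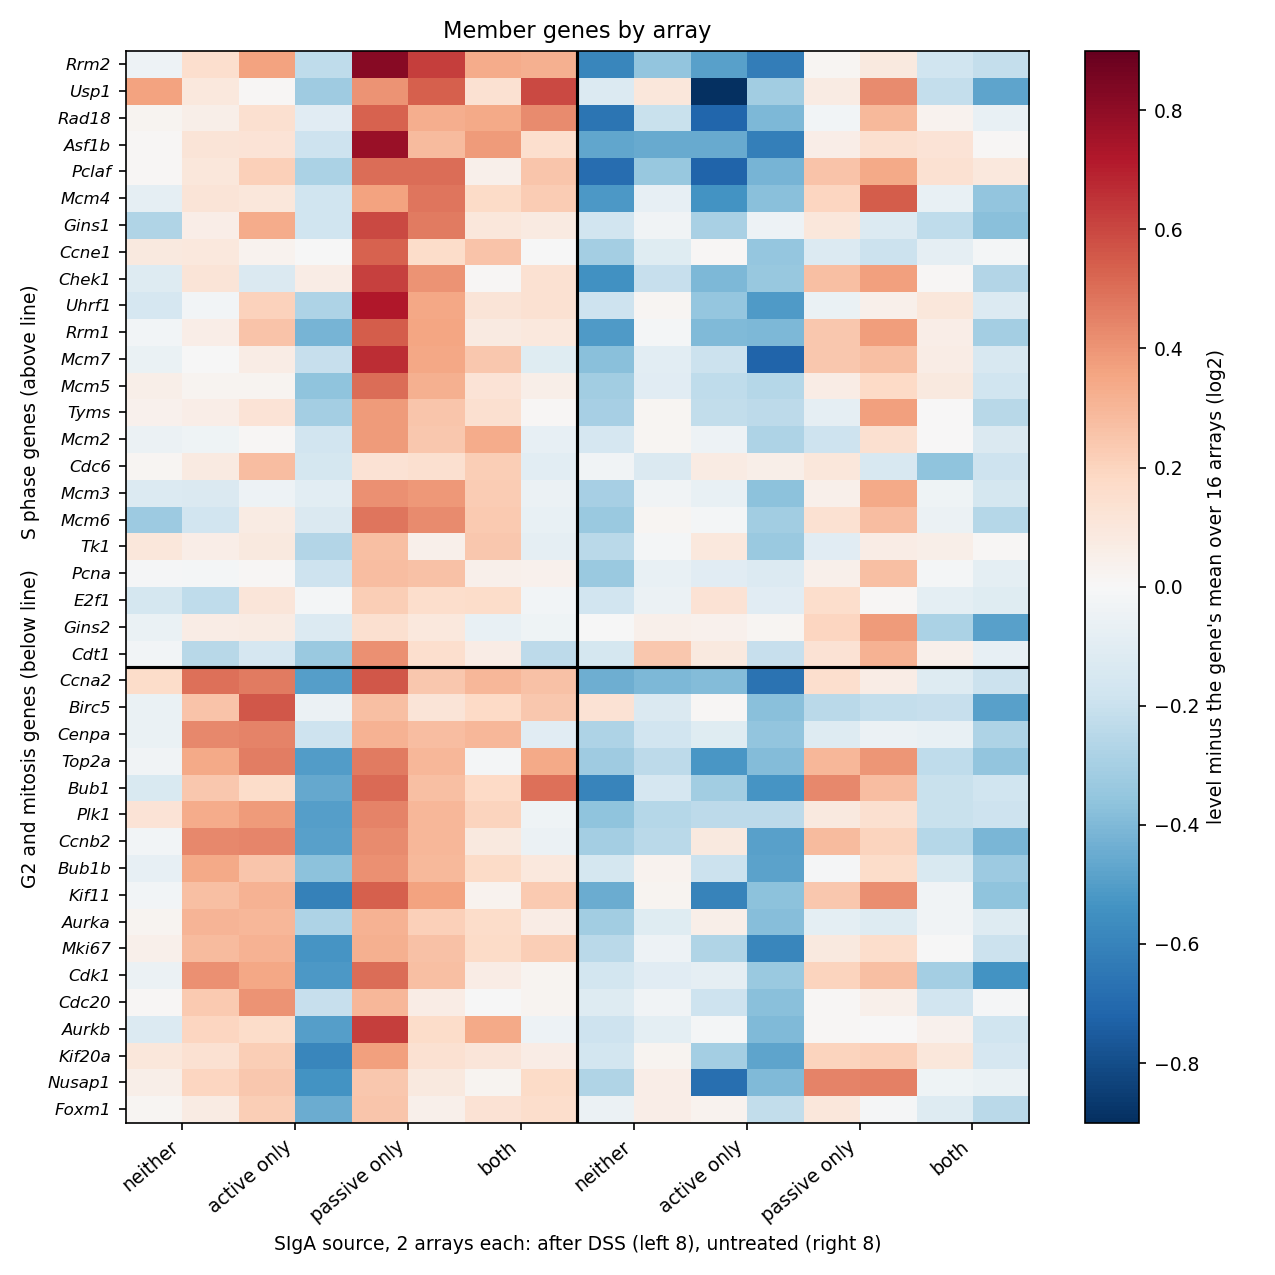
Each row is 1 member gene and each column 1 array, with DSS arrays in the left 8 columns and untreated arrays in the right 8; colour gives the log2 level minus that gene's mean over the 16 arrays, S phase genes above the line and G2 and mitosis genes below it. Red is commonest in the DSS arrays with passive SIgA only, and the mostly blue column among the DSS arrays is replicate 2 with active SIgA only.

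A subset of these genes rose after DSS. Averaged over the 4 SIgA groups, 12 of the 40 genes were higher after DSS and none was lower (limma on the 8 groups, Benjamini-Hochberg adjusted p under 0.05 over all 19938 genes, the rule for every call here), where 6.4% of all genes were higher and 6.73% lower. The 12 were 9 of the 23 S phase genes and 3 of the 17 G2 and mitosis genes, and whether these shares differ was not tested. Since the list was chosen with earlier results of these data known, counts set beside all genes here and below are descriptions, not tests of the list. The median difference, DSS minus untreated, was 0.24 for S phase genes and 0.28 for G2 and mitosis genes on the log2 scale, beside -0.0044 over all genes. In all, 39 members lay above 0, where 48.6% of all genes did. No member had all 8 DSS arrays above all 8 untreated arrays, as 1.58% of all genes did.

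The largest difference was that of Rrm2, the regulated small subunit of ribonucleotide reductase, which makes deoxynucleotides. After DSS, Rrm2 read 8.51 and 8.71 with neither source, 8.92 and 8.33 with active SIgA alone, 9.37 and 9.18 with passive SIgA alone and 8.89 and 8.88 with both. Untreated, Rrm2 read 7.97 and 8.21 with neither source, 8.07 and 7.93 with active SIgA alone, 8.57 and 8.64 with passive SIgA alone and 8.38 and 8.34 with both. Every DSS array lay above both untreated arrays of its own SIgA group. Rrm2 rose by 0.58 ± 0.08 (SE), which is 1.5-fold, with an adjusted p of 0.000405. The other nucleotide genes did not pass: the large subunit Rrm1, thymidylate synthase Tyms and thymidine kinase Tk1 differed by 0.12 to 0.24.

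Among fork and chromatin genes, Asf1b, the chaperone that hands new histones H3 and H4 to the replicated DNA, rose. After DSS, Asf1b read 8.45 and 8.56 with neither source, 8.57 and 8.26 with active SIgA alone, 9.23 and 8.73 with passive SIgA alone and 8.83 and 8.6 with both. Untreated, Asf1b read 7.98 and 7.99 with neither source, 7.99 and 7.83 with active SIgA alone, 8.5 and 8.59 with passive SIgA alone and 8.57 and 8.45 with both. In each SIgA group both DSS arrays lay above both untreated arrays, although the untreated arrays with passive SIgA reached the levels of DSS arrays without it. The difference was 0.41 ± 0.08, 1.33-fold (adjusted p 0.0040).

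Rad18, the ubiquitin ligase that marks PCNA at stalled forks so that damage can be bypassed, rose as well. After DSS, Rad18 read 7.98 and 8.01 with neither source, 8.1 and 7.86 with active SIgA alone, 8.48 and 8.28 with passive SIgA alone and 8.3 and 8.38 with both. Untreated, Rad18 read 7.3 and 7.75 with neither source, 7.24 and 7.55 with active SIgA alone, 7.93 and 8.25 with passive SIgA alone and 7.99 and 7.89 with both. Both DSS arrays were again above both untreated arrays of their SIgA group. The difference was 0.44 ± 0.08, 1.35-fold (adjusted p 0.00386). Rrm2, Asf1b and Rad18 were the only 3 of the 40 members (3.17% of all genes) whose DSS arrays were higher without overlap in each of the 4 SIgA groups.

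Pclaf, which binds the PCNA clamp, rose by 0.34 ± 0.08, 1.26-fold (adjusted p 0.018). After DSS, Pclaf read 9.0 and 9.09 with neither source, 9.2 and 8.7 with active SIgA alone, 9.49 and 9.49 with passive SIgA alone and 9.03 and 9.24 with both. Untreated, Pclaf read 8.3 and 8.65 with neither source, 8.27 and 8.57 with active SIgA alone, 9.24 and 9.33 with passive SIgA alone and 9.13 and 9.08 with both. Untreated mice with passive SIgA read 9.08 to 9.33, and with both sources the DSS and untreated arrays overlapped. Pclaf has another, dimmer probe set, on which the DSS difference was 0.53 ± 0.16 (adjusted p 0.0424). The annotation gives both probe sets to 1 gene, and whether either also reads a near-identical copy elsewhere in the genome was not tested, for Pclaf or for Tk1, which has a pair as well, so the levels of these genes are uncertain.

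Usp1, which removes ubiquitin from PCNA, rose by 0.45 ± 0.13 (adjusted p 0.0372). Its untreated arrays with active SIgA only read 7.20 and 8.18. Without the first of them the difference was 0.33 and still passed, and without that array and the untreated group with both sources it was 0.21 (adjusted p 0.403). Uhrf1, which brings the maintenance DNA methyltransferase to new DNA, differed by 0.27 ± 0.08 without passing (adjusted p 0.0505). The clamp itself, Pcna, differed by 0.10 ± 0.06 (adjusted p 0.307). Usp1, Uhrf1, Pcna and the further genes below that are given a difference but no array values were picked after their values were seen, unless they are the highest or lowest of their list.

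Of the helicase genes, Mcm4 rose by 0.30 ± 0.09 (adjusted p 0.0367), and the other 5 Mcm subunits differed by 0.13 to 0.24 without passing. Gins1, a subunit of the GINS complex that joins the active helicase, rose by 0.29 ± 0.08 (adjusted p 0.0375). After DSS, Gins1 read 5.58 and 5.91 with neither source, 6.18 and 5.67 with active SIgA alone, 6.44 and 6.32 with passive SIgA alone and 5.95 and 5.93 with both. Untreated, Gins1 read 5.68 and 5.82 with neither source, 5.56 and 5.81 with active SIgA alone, 5.96 and 5.73 with passive SIgA alone and 5.62 and 5.48 with both. DSS arrays were above untreated arrays with passive SIgA only and with both, and they overlapped in the other 2 SIgA groups. Gins1 was the only member among the dimmest 30% of genes. The loading factors Cdc6 and Cdt1 did not pass, and Cdt1, at -0.09 ± 0.08, was the 1 member that lay below 0. Gins2, the other GINS subunit listed, was at 0.02 ± 0.06.

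Of the genes that start and guard S phase, cyclin E1 (Ccne1), the partner of Cdk2 at the entry to S phase, rose by 0.29 ± 0.07 (adjusted p 0.0214). After DSS, Ccne1 read 7.87 and 7.88 with neither source, 7.82 and 7.78 with active SIgA alone, 8.32 and 7.95 with passive SIgA alone and 8.04 and 7.78 with both. Untreated, Ccne1 read 7.48 and 7.68 with neither source, 7.8 and 7.44 with active SIgA alone, 7.66 and 7.59 with passive SIgA alone and 7.71 and 7.77 with both. The lowest DSS array read 7.78, and the highest untreated array 7.80. Chek1, the checkpoint kinase that slows replication when forks stall, rose by 0.27 ± 0.07 (adjusted p 0.0258). The transcription factor E2f1 was at 0.06 ± 0.06 (adjusted p 0.622).

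**Figure D2:**
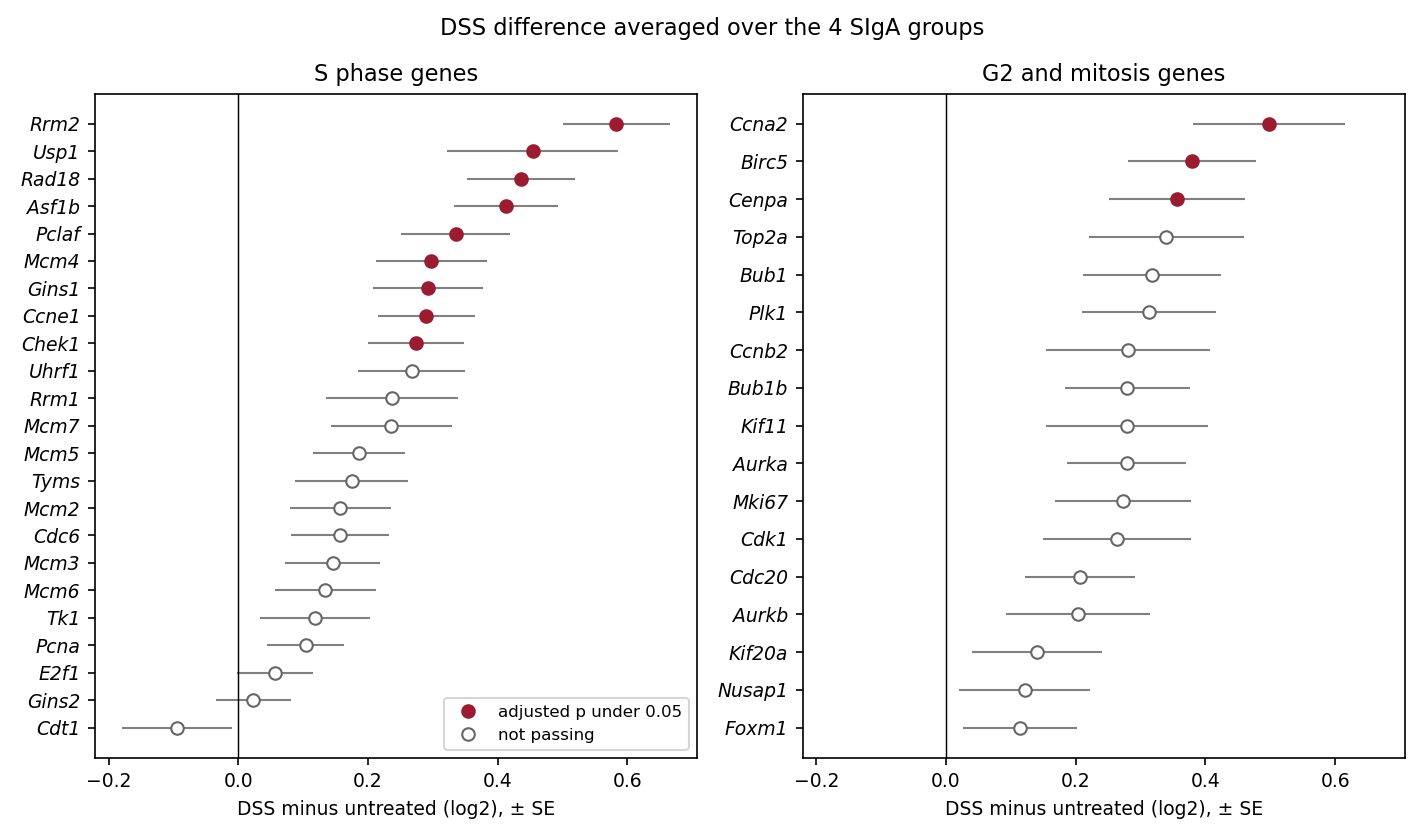
The log2 difference, DSS minus untreated, averaged over the 4 SIgA groups, is drawn for each member with its SE; filled points passed at an adjusted p under 0.05. Rrm2 at 0.58 and Ccna2 at 0.50 lead their lists, and Cdt1 is the only point below 0.

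Among G2 and mitosis genes, cyclin A2 (Ccna2), the partner of Cdk2 and Cdk1 from S phase into early mitosis, had the largest difference. After DSS, Ccna2 read 9.6 and 9.93 with neither source, 9.9 and 8.94 with active SIgA alone, 9.998 and 9.68 with passive SIgA alone and 9.74 and 9.7 with both. Untreated, Ccna2 read 8.99 and 9.03 with neither source, 9.04 and 8.77 with active SIgA alone, 9.59 and 9.5 with passive SIgA alone and 9.32 and 9.24 with both. In each SIgA group but that with active SIgA only, both DSS arrays lay above both untreated arrays; there, replicate 2 after DSS read 8.94, below the higher untreated array at 9.04. Ccna2 rose by 0.50 ± 0.12, 1.41-fold (adjusted p 0.0132).

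Birc5 (survivin), a subunit of the chromosomal passenger complex that also holds Aurora B, rose by 0.38 ± 0.10, 1.30-fold (adjusted p 0.0218). After DSS, Birc5 read 7.44 and 7.76 with neither source, 8.06 and 7.45 with active SIgA alone, 7.78 and 7.62 with passive SIgA alone and 7.69 and 7.75 with both. Untreated, Birc5 read 7.63 and 7.37 with neither source, 7.51 and 7.13 with active SIgA alone, 7.27 and 7.29 with passive SIgA alone and 7.3 and 7.02 with both. The groups with passive SIgA did not overlap between treatments, and those without it did.

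Cenpa, the histone H3 variant that marks centromeres, rose by 0.36 ± 0.10, 1.28-fold (adjusted p 0.0396). After DSS, Cenpa read 8.45 and 8.94 with neither source, 8.96 and 8.33 with active SIgA alone, 8.83 and 8.79 with passive SIgA alone and 8.82 and 8.41 with both. Untreated, Cenpa read 8.23 and 8.34 with neither source, 8.41 and 8.16 with active SIgA alone, 8.39 and 8.46 with passive SIgA alone and 8.45 and 8.24 with both. Groups overlapped where active SIgA was present, alone or with passive SIgA.

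The mitotic kinases lay in the same direction but did not pass. Polo-like kinase 1 (Plk1), which drives entry into mitosis and spindle assembly, differed by 0.31 ± 0.10 (adjusted p 0.0645). After DSS, Plk1 read 9.53 and 9.74 with neither source, 9.79 and 8.91 with active SIgA alone, 9.85 and 9.7 with passive SIgA alone and 9.61 and 9.37 with both. Untreated, Plk1 read 9.04 and 9.15 with neither source, 9.17 and 9.17 with active SIgA alone, 9.5 and 9.55 with passive SIgA alone and 9.2 and 9.22 with both. The lowest of the 16 readings was a DSS array, replicate 2 with active SIgA only.

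Aurora A (Aurka), which matures the centrosomes, differed by 0.28 ± 0.09 (adjusted p 0.065). After DSS, Aurka read 8.15 and 8.43 with neither source, 8.43 and 7.85 with active SIgA alone, 8.44 and 8.34 with passive SIgA alone and 8.29 and 8.19 with both. Untreated, Aurka read 7.81 and 8.02 with neither source, 8.18 and 7.74 with active SIgA alone, 8.04 and 8.01 with passive SIgA alone and 8.09 and 8.01 with both. Only the group with active SIgA alone overlapped between treatments. The remaining 12 G2 and mitosis genes also did not pass. They are the checkpoint genes Bub1 and Bub1b, the anaphase activator Cdc20, Aurora B (Aurkb), Cdk1 and cyclin B2 (Ccnb2), the transcription factor Foxm1, the spindle proteins Kif11, Kif20a and Nusap1, topoisomerase Top2a and the proliferation antigen Mki67. They differed by 0.11 (Foxm1) to 0.34 (Top2a).

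**Figure D3:**
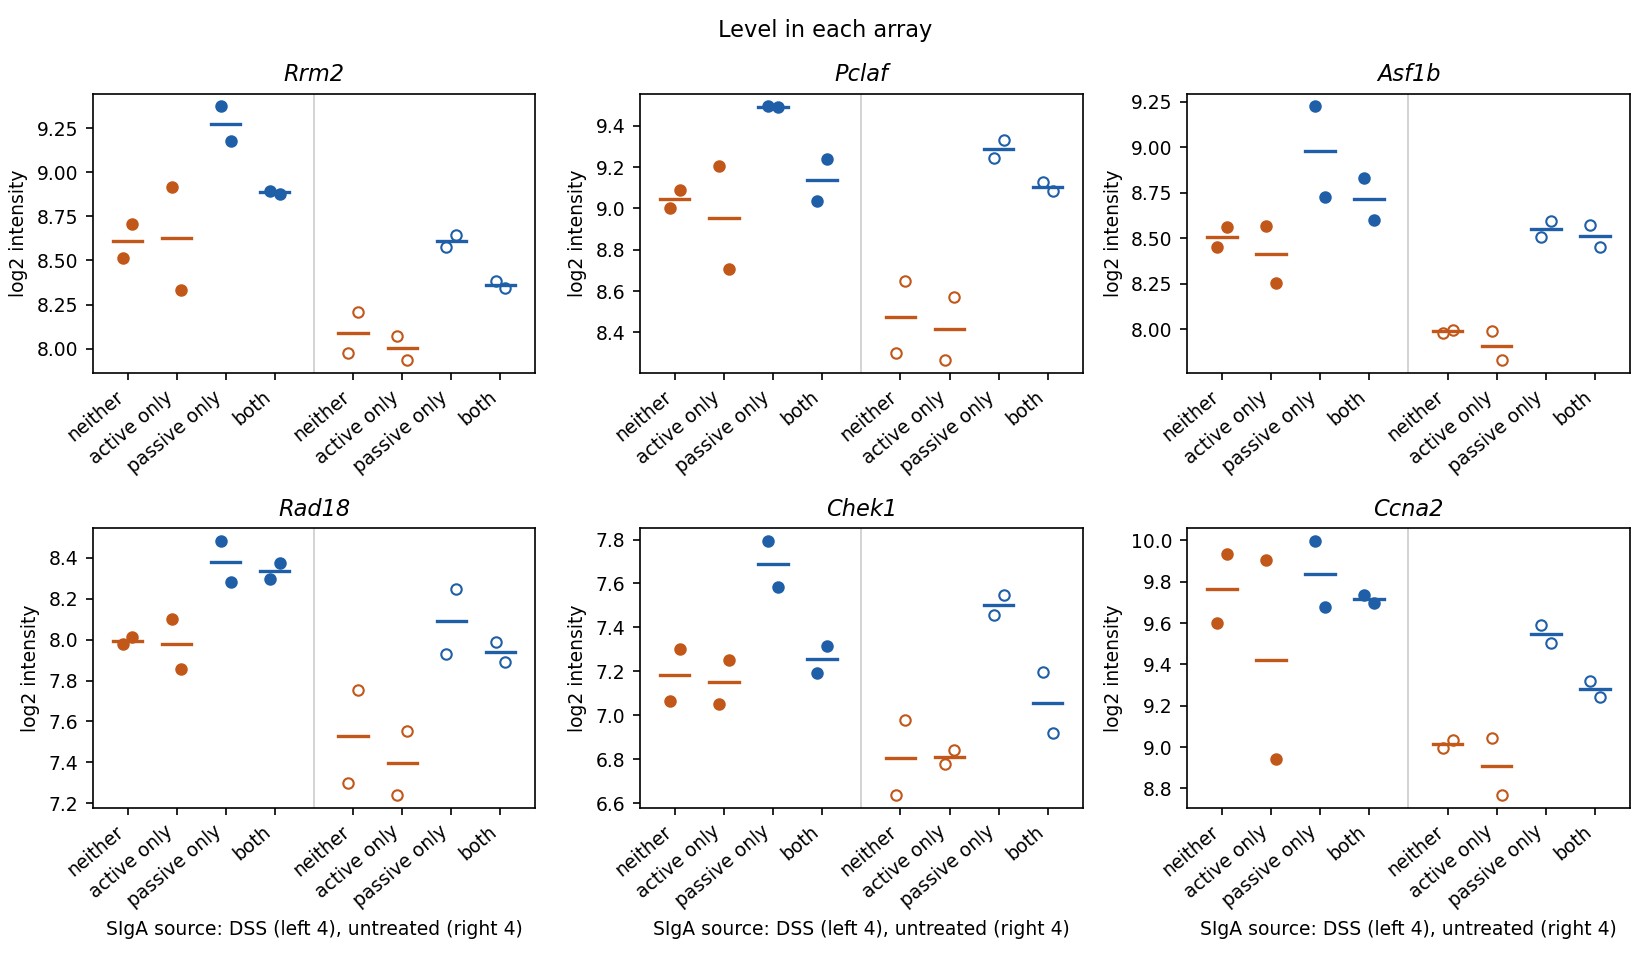
Log2 levels of 6 members are shown in each array, 2 per group, with a bar at the group mean; DSS groups are on the left and untreated groups on the right of each panel, orange without and blue with passive SIgA. Rrm2, Asf1b and Rad18 are higher after DSS without overlap in every SIgA group, and Pclaf, Rrm2, Asf1b and Rad18 are lower without passive SIgA among untreated arrays.

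How many of the 40 passed depended on single arrays. More passed without replicate 2 of DSS with active SIgA only, and fewer without most other single arrays. Each such fit leaves 1 array in a group, so its counts are not set beside all genes. Over these fits the members' median was lowest, at 0.17, without replicate 1 of DSS with active SIgA only. It was highest, at 0.32, without replicate 2 of that group. Without the untreated group with both sources, 4 passed, namely Rrm2, Asf1b, Rad18 and Pclaf, where 6.07% of all genes did in either direction, and the median over the members was 0.25. Ccna2 then differed by 0.52 ± 0.14 (adjusted p 0.0507). Rrm2, Rad18 and Asf1b passed under every one of the 27 other settings tried.

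Within single SIgA groups, each with 2 DSS arrays and 2 untreated arrays, no member passed. With neither source the median difference was 0.23, with active SIgA alone 0.26, with passive SIgA alone 0.20 and with both 0.23. At an unadjusted p under 0.05 there were 7, 11, 5 and 9 members, in that order. The share of all genes at that unadjusted p is not given here. At an adjusted p under 0.05, where no member passed, 0.492%, 0.622%, 0.893% and 3.56% of all genes were called higher, in that order. The median with active SIgA alone rested on 1 array: it was -0.02 without replicate 1 of its DSS arrays and 0.57 without replicate 2. The smallest adjusted p was that of Rrm2 with passive SIgA alone, 0.0595, at 0.67 ± 0.16. Arrays did not overlap, with DSS higher, for 23 members with neither source (19.3% of all genes), 7 with active SIgA alone (15.2%), 26 with passive SIgA alone (24.3%) and 28 with both (28.4%). The 7 with active SIgA alone were a share near that of all genes. All 7 were S phase genes, and replicate 2 of these DSS arrays was low for the mitotic genes. Gins2 and Nusap1, a spindle microtubule protein, were lower without overlap after DSS with passive SIgA alone (2 of 40 members, 18.7% of all genes). The direction recurred: 31 of 40 members had a positive DSS difference in each of the 4 SIgA groups (16 of 23 S phase, 15 of 17 G2 and mitosis), against 13% of all genes.

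**Figure D4:**
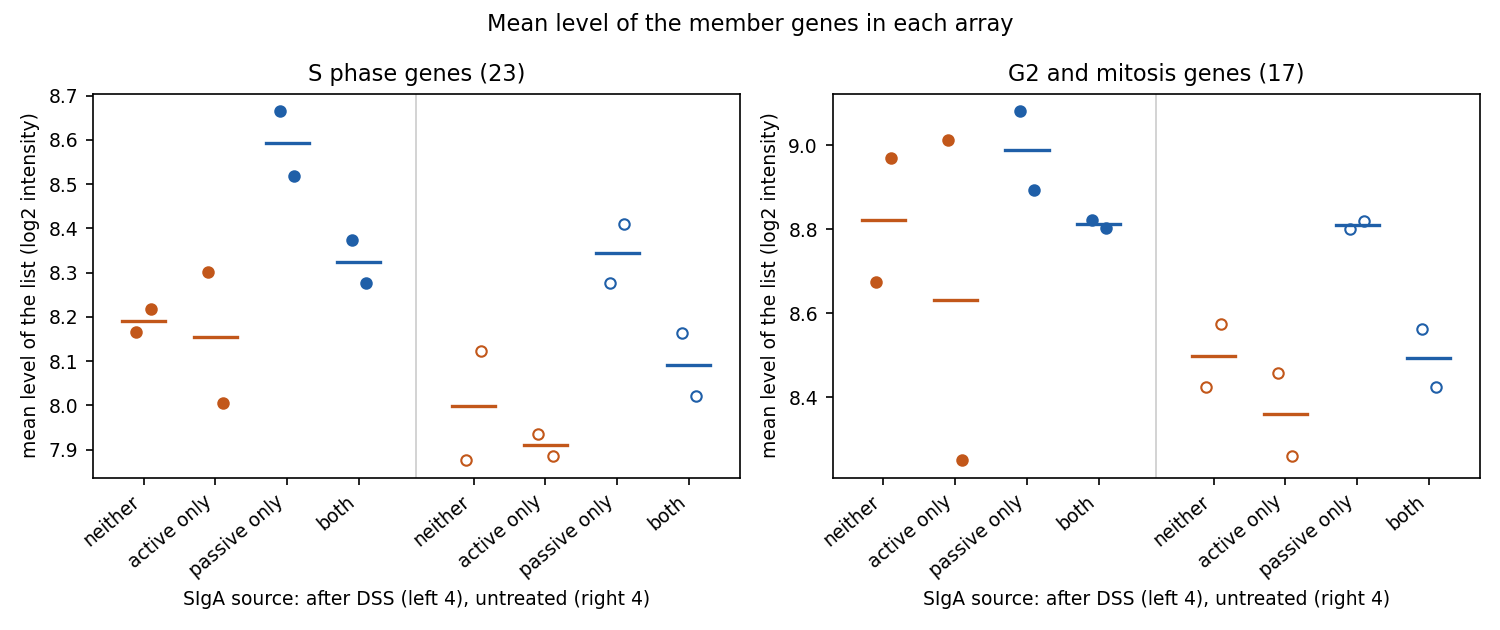
Mean log2 level of the 23 S phase genes (left) and the 17 G2 and mitosis genes (right) in each array, with a bar at the group mean of 2 arrays; DSS groups are on the left of each panel and untreated groups on the right, orange without and blue with passive SIgA. The group with passive SIgA only is highest in both treatments: its S phase mean is 8.59 after DSS and 8.34 untreated, and its G2 and mitosis mean 8.99 after DSS and 8.81 untreated.

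Other genes of the same pathway were taken from lists made for this comparison, also with earlier results of these data known. For these lists and those below, the shares over all genes were 6.4% higher and 6.73% lower after DSS. Of 51 further S phase genes 9 were higher after DSS and none lower, with a median of 0.14. Dbf4, which activates the origin-firing kinase Cdc7, rose by 0.52 ± 0.11 (adjusted p 0.00602). Of 71 further G2 and mitosis genes 17 were higher and 1 lower, with a median of 0.22. Kif23, a kinesin of the cytokinetic midzone, rose by 0.40 ± 0.08 (adjusted p 0.00617), and securin (Pttg1) fell by 0.23. When the untreated group with both sources was left out, 2 of the 51 S phase genes and 2 of the 71 G2 and mitosis genes were higher. Among the 71, 1 was lower, Pttg1. In that fit 6.07% of all genes passed in either direction, a larger share than in either list. Dbf4 was then at 0.47 ± 0.13 (adjusted p 0.0527) and Kif23 at 0.36 ± 0.10 (adjusted p 0.0547).

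Of 19 genes that drive G1 and the start of S phase, 6 were higher and 1 lower. Cyclin D1 (Ccnd1), which starts G1 progression with Cdk4 and Cdk6, rose by 0.71 ± 0.06 (adjusted p 4.72e-06). Its partner Cdk6 fell by 0.55 (adjusted p 2.659e-05). E2f2, an activating E2F factor, rose by 0.41 ± 0.07, and Tfdp1, the partner of E2F factors, by 0.37 ± 0.06. With the untreated group with both sources left out, 5 were higher and 1 lower, these 4 genes among them.

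Of 26 brakes of the cell cycle, 1 was higher and 6 were lower. Plk3, a stress-responsive kinase, fell by 0.56, Wee1, which holds Cdk1 inactive, by 0.41, the p53 target Trp53inp1 by 0.33 and the antiproliferative gene Btg2 by 0.29. These 4 were the brakes that passed without the untreated group with both sources.

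Markers of other cells moved with DSS too, and their part in the result was not tested. Of 10 macrophage markers 9 were higher, and their mean ranged over 6.72 to 7.21 in DSS arrays and 6.17 to 6.37 in untreated arrays. Of 9 neutrophil markers 8 were higher, with means of 6.76 to 7.54 in DSS arrays and 5.92 to 6.34 in untreated arrays. Of 8 fibroblast markers 2 were higher, with means of 7.03 to 7.38 in DSS arrays and 6.6 to 7.31 in untreated arrays. No T cell marker of 10 passed (5.86 to 6.22 in DSS arrays and 5.84 to 6.4 in untreated arrays), and of 7 B and plasma cell markers 1 was lower (5.25 to 5.67 in DSS arrays and 5.39 to 6.01 in untreated arrays). Of 8 epithelial markers 1 was lower, with means of 11.93 to 12.04 in DSS arrays and 11.94 to 12.08 in untreated arrays. Crypt base markers went the other way from the members: 7 of 9 were lower after DSS, with means of 7.93 to 8.25 in DSS arrays and 8.36 to 8.75 in untreated arrays. Lgr5, the receptor that marks colonic stem cells, fell by 0.94 and Ascl2, their transcription factor, by 0.61. Without the untreated group with both sources, the same 9 macrophage, 8 neutrophil, 2 fibroblast and 7 crypt base markers passed, and the B cell and epithelial markers did not.

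The members also differed by passive SIgA. Averaged over the offspring genotypes and treatments, 5 of the 40 were lower without passive SIgA and none was higher, where 0.637% of all genes were lower. All 5 were S phase genes, and the difference between the lists was not tested. In all, 37 members lay below 0. The median difference, without minus with passive SIgA, was -0.29 for S phase genes and -0.19 for G2 and mitosis genes, beside 0.0099 over all genes.

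Pclaf had the largest difference. It averaged 8.72 in mice without and 9.26 in mice with passive SIgA over 8 arrays each, a difference of -0.53 ± 0.08 (adjusted p 0.0127), and its levels without passive SIgA were 0.69 of those with it. On its dimmer probe set the difference was -0.56 ± 0.16 and did not pass (adjusted p 0.108). Asf1b averaged 8.20 without and 8.69 with passive SIgA, a difference of -0.48 ± 0.08 (adjusted p 0.0164). Rad18 averaged 7.72 without and 8.19 with it, a difference of -0.46 ± 0.08 (adjusted p 0.0256).

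Rrm2 averaged 8.33 without and 8.78 with passive SIgA, a difference of -0.45 ± 0.08 (adjusted p 0.0265), and Chek1 averaged 6.99 without and 7.38 with it, a difference of -0.39 ± 0.07 (adjusted p 0.0307). Chek1 was named because it passed, after its values were seen. The Mcm helicase subunits lay below 0 together, at -0.40 (Mcm7) to -0.18 (Mcm2), without passing, and the adjusted p of Mcm4 was 0.054. Among G2 and mitosis genes the lowest was the checkpoint kinase Bub1, at -0.45 ± 0.11 (adjusted p 0.0661), and the highest Birc5, at 0.08 ± 0.10. Gins2 and Cdc6 were the other members above 0.

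In untreated mice, 4 members were lower without passive SIgA, where 1.8% of all genes were. Pclaf differed by -0.75 ± 0.12 (adjusted p 0.00602), Asf1b by -0.58 ± 0.11 (adjusted p 0.0191), Rad18 by -0.55 ± 0.12 (adjusted p 0.0299) and Chek1 by -0.47 ± 0.10 (adjusted p 0.0355). On the dimmer probe set of Pclaf the untreated difference was -0.69 ± 0.22 and did not pass (adjusted p 0.112). The untreated arrays did not overlap for 6 members (2.1% of all genes), Rrm2, Pclaf, Asf1b, Rad18, Ccna2 and Plk1, each lower without passive SIgA. Untreated Pigr+/- offspring alone gave 2 calls, Pclaf at -0.69 (adjusted p 0.0323) and Asf1b at -0.60 (adjusted p 0.0454). That is near the share over all genes, of which 3.84% were lower, and this comparison holds the 2 arrays that stood apart. The dimmer probe set of Pclaf gave -0.45 ± 0.32 there (adjusted p 0.412). Untreated Pigr-/- offspring gave none, where 0% of all genes passed. There, 39 of 40 members lay below 0, with a median of -0.31, and 17 members were at an unadjusted p under 0.05. All genes were counted at that p only in the fit without the untreated group with both sources, with 1379 of 19938 for this comparison.

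After DSS no member passed by limma, and 0% of all genes did, with 788 genes at an unadjusted p under 0.05. Of the members, 17 were at an unadjusted p under 0.05, 16 of them S phase genes, and 39 lay below 0. The median was -0.32 for S phase genes and -0.18 for G2 and mitosis genes. Rrm2 had the lowest value, -0.46 ± 0.12 (adjusted p 0.528). The DSS arrays did not overlap for Pcna, Mcm4, Mcm5, Asf1b and Rad18, each lower without passive SIgA (5 of 40 members, 1.97% of all genes). In Pigr-/- offspring after DSS all 40 members lay below 0, with a median of -0.40 for S phase genes and -0.14 for G2 and mitosis genes, and in Pigr+/- offspring after DSS the medians were -0.16 for S phase genes and -0.19 for G2 and mitosis genes. The direction in Pigr+/- offspring after DSS turned with 1 array: over all 40 members the median was 0.07 without replicate 2 of DSS with active SIgA only and -0.42 without replicate 1, beside -0.17 with both.

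**Figure D5:**
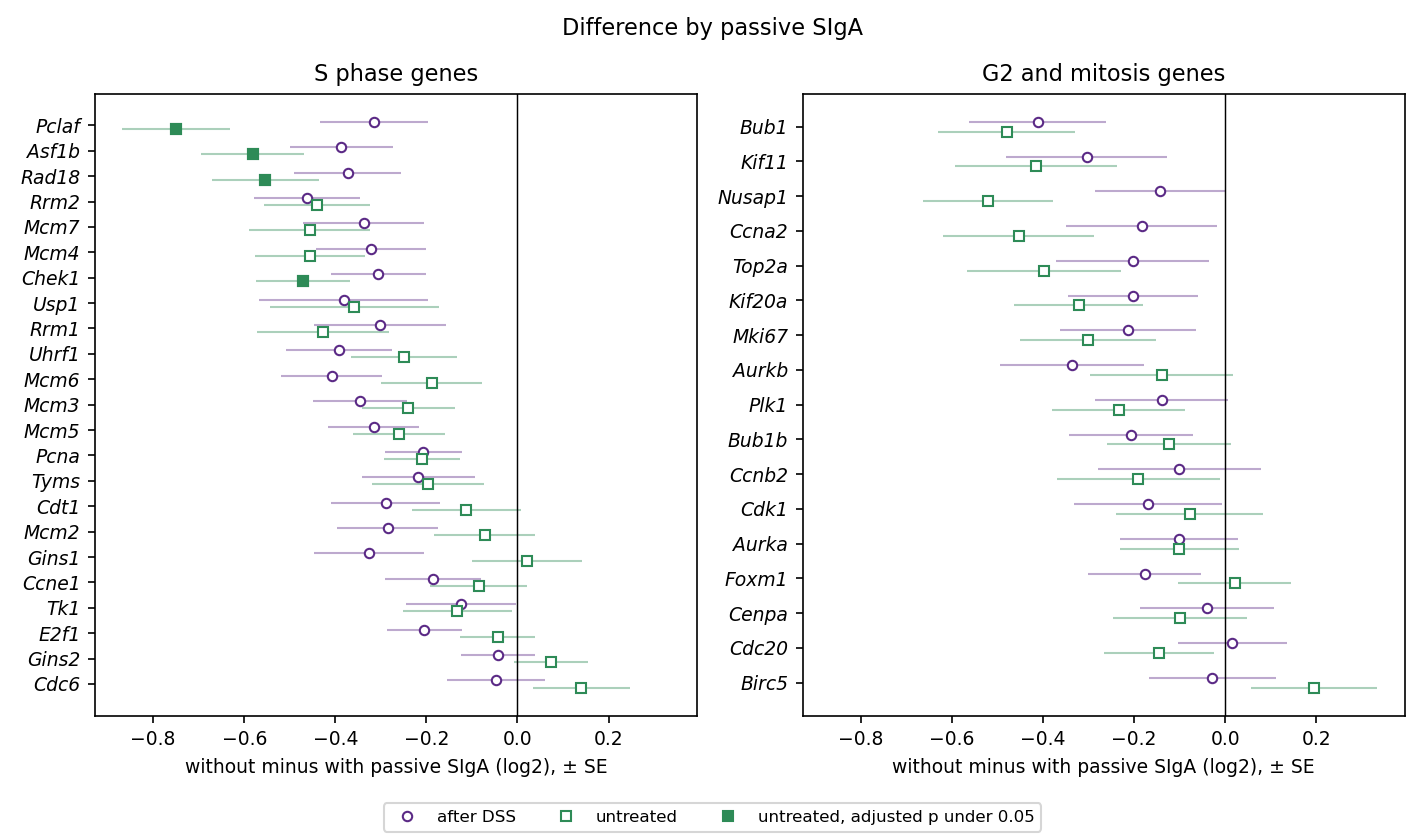
The log2 difference, without minus with passive SIgA, is drawn for each member with its SE, averaged over the offspring genotypes, after DSS (circles) and untreated (squares); filled squares passed at an adjusted p under 0.05. Pclaf at -0.75 untreated is the lowest point, and in the S phase panel all points but 3 untreated ones lie left of 0.

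These calls depended on single groups and arrays. Without the untreated group with both sources, no member passed for the averaged passive difference, where 0.015% of all genes did. There, 39 of 40 members lay below 0, with a median of -0.25. In that average Chek1 differed by -0.43 (adjusted p 0.165) and Pclaf by -0.48 (adjusted p 0.192). The untreated difference was then that of Pigr-/- offspring alone, given above, and is no separate check. Again no member passed, 39 of 40 lay below 0 and the median was -0.31. Leaving out replicate 1 of DSS with active SIgA only gave 14 members lower on average, 7 of them G2 and mitosis genes. Only 1 passed without untreated replicate 1 with neither source and 1 without untreated replicate 2 with passive SIgA only. There were 2 without replicate 1 of DSS with passive SIgA only, without replicate 2 of DSS with active SIgA only and without either DSS array with neither source, and 3 without untreated replicate 1 with passive SIgA only or untreated replicate 2 with both. For untreated mice, 7 passed when either DSS array with active SIgA only was left out. There were 2 without untreated replicate 1 with both or untreated replicate 1 with passive SIgA only, and 1 without replicate 2 of either of these groups or untreated replicate 1 with neither source. In untreated Pigr+/- offspring the 2 calls became 0 when either untreated array with both sources or untreated replicate 1 with active SIgA only was left out, and 1 without any untreated array with passive SIgA only or any array with neither source.

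The other genes of the pathway were counted in the same comparison. Of 51 further S phase genes 3 were lower without passive SIgA, where 0.637% of all genes were, and 50 lay below 0, with a median of -0.18. E2f8, a repressor E2F factor made in S phase, differed by -0.38 ± 0.07 (adjusted p 0.0249), and Pole2, a subunit of DNA polymerase epsilon, by -0.44 ± 0.09 (adjusted p 0.0406). Of 71 further G2 and mitosis genes 1 was lower, Plk4, the kinase of centriole duplication, at -0.39 ± 0.08 (adjusted p 0.04998). Of the G1 drivers 1 was lower, Ccnd1 at -0.32 ± 0.06 (adjusted p 0.0265), and none of the 26 brakes passed. None of these 5 genes passed without the untreated group with both sources, where E2f8 differed by -0.41 (adjusted p 0.165), Pole2 by -0.51 (adjusted p 0.198), Plk4 by -0.48 (adjusted p 0.192) and Ccnd1 by -0.35 (adjusted p 0.184), and 50 of the 51 S phase genes again lay below 0. No macrophage, neutrophil, fibroblast, T cell, B cell, epithelial or crypt base marker passed for the averaged passive difference.

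Whether the DSS difference itself depended on passive SIgA was tested as an interaction, and no member passed, where 0.115% of all genes did. The members' median was 0.0009, with 20 above and 20 below 0, and 1 at an unadjusted p under 0.05. The sign of this median turned when any 1 of 8 arrays was left out, between -0.12 and 0.12. The gene at an unadjusted p under 0.05 was Pclaf at 0.43 ± 0.17 (adjusted p 0.51). Gins1 stood at the other end, at -0.35 ± 0.17 (adjusted p 0.627).

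Nusap1 had the highest value among G2 and mitosis genes, 0.38 ± 0.20 (adjusted p 0.664). After DSS, Nusap1 read 8.18 and 8.32 with neither source, 8.37 and 7.59 with active SIgA alone, 8.37 and 8.21 with passive SIgA alone and 8.15 and 8.29 with both. Untreated, Nusap1 read 7.86 and 8.18 with neither source, 7.45 and 7.73 with active SIgA alone, 8.57 and 8.58 with passive SIgA alone and 8.08 and 8.06 with both. Untreated mice with passive SIgA only held the 2 highest readings.

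Active SIgA was compared the same way. No member passed by limma for the averaged difference, without minus with active SIgA, where 1.37% of all genes did in either direction. Of the members, 39 of 40 lay above 0 and 14 were at an unadjusted p under 0.05. All genes were counted at that p only in the fit without the untreated group with both sources, with 980 of 19938. The median was 0.18, beside -0.0065 over all genes. Usp1 had the largest value, 0.47 ± 0.13 (adjusted p 0.102), and Gins2 the smallest adjusted p, 0.0872, at 0.22 ± 0.06. Without the untreated group with both sources no member passed, 0.00502% of all genes did, 38 members lay above 0 and the median was 0.15. Some members passed when single arrays were left out, most of them without replicate 1 of DSS with active SIgA only. Over these fits the members' median lay between 0.11 and 0.23. No member passed for the dependence of the DSS difference on active SIgA (0.843% of all genes, and no member at an unadjusted p under 0.05). None passed for the dependence of the passive difference on active SIgA (0.0752% of all genes). At an unadjusted p under 0.05 there were 5 members, all S phase genes, and the share of all genes at that p is not given here.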

How the data were processed

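Expression was measured on 16 arrays, 2 in each of 8 groups, each from RNA pooled from 3 mice, with 6 mice a group and RNA integrity numbers from 8.5 up, per the labels. The deposited values were log2 intensities per probe set, made by the authors with RMA (version not given in the sources used here) per the submitters' processing notes. RMA equalises the arrays, so a shift of all genes together could not be seen, and array number limits the precision. Of 35557 probe sets, 21789 had 1 gene symbol in the platform annotation, 1621 several and 12147 none. The brightest 1-gene probe set stood for each of 19938 genes, and 4 members had 2. Groups were fitted with limma 3.58.1 (R 4.3.3; lmFit and eBayes, 8 residual degrees of freedom, 5.03 prior), two-sided, with 16 contrasts and Benjamini-Hochberg adjustment over all genes at 0.05. Array values were printed for the 5 members of each phase list with the smallest p for the DSS average and the top 3 for the passive average and for its interaction with DSS; others were named as extremes of their list, or after their values were seen. Genes of other lists were named from among the 4 of each with the smallest p for DSS and the 3 for passive SIgA, with promoters of the top 3 members of each phase list that have an entry. The members and lists were chosen with earlier results of these data known. The fit was tested on simulated data for the DSS average with 19938 genes, of which 100 were changed by each size. It recovered 79% of log2 changes of 0.5 and 43% of changes of 0.3. In the data 1276 genes were called higher and 1342 lower, so these rates need not hold there. Alternatives were a trend in the prior, array weights, the replicate number as a block, median centring, quantile normalization, a filter on dim genes, the mean of a gene's probe sets, an adjusted p of 0.1, separate fits and left-out arrays or groups; the dimmer probe set, the other lists without the untreated group with both sources and the medians without each array were added after seeing the data.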

Additional observations from a re-analysis of the deposited data

How the results depend on the processing

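No single member's difference among those tracked changed sign under the alternatives run, but medians over the 40 members did: leaving out 1 array turned that of DSS with active SIgA only (-0.02 to 0.57) and that of passive SIgA in Pigr+/- offspring after DSS (-0.42 to 0.07), each for 1 of 16 arrays, and those of the dependence of the DSS difference on passive SIgA (-0.12 to 0.12, 8 of 16) and on active SIgA (-0.15 to 0.11, 6 of 16). The last also turned after quantile normalization (0.05) and without the untreated group with both sources (0.0023). For the DSS average, where 12 members passed, 4 passed without the untreated group with both SIgA sources and 4 without that group and 1 more untreated array; leaving out single arrays gave 5 to 25. For the passive average (5), 9 passed with a trend in the prior, 12 with centred arrays, 9 after quantile normalization, 12 at an adjusted p of 0.1 and 0 without the untreated group with both sources, also with 1 more array out; single arrays gave 1 to 14. For the passive difference in untreated mice (4), these settings gave 7, 9, 8, 8, 0 and 0, array weights 2, a fit restricted to the arrays compared 2, and single arrays 1 to 7. In untreated Pigr+/- offspring (2), 0 passed with array weights, without the dimmest 30% of genes and in that restricted fit, 1 with the mean of probe sets, 5 with centred arrays, 4 after quantile normalization and 4 at 0.1; single arrays gave 0 to 3. For DSS within 1 SIgA group (0 each), the restricted fit gave 1 with neither source and 1 with passive SIgA only. With passive SIgA only, array weights gave 2, and the trend, quantile normalization, the filter on dim genes and 0.1 gave 1 each. With both sources the trend gave 1 and 0.1 gave 3. Single arrays gave 0 to 1, 0 to 2 with active SIgA only, and 0 to 6 for the active average, for which 0.1 gave 1. The labels pair no replicates across groups. Same-numbered arrays deviated together at correlations over genes of -0.301 to 0.666 (median 0.076) over 28 pairs of groups, and the replicate block gave 13 members for the DSS average, 7 for the passive average and 4 for untreated mice. With the dimmer probe set, added after seeing the data, 12, 4 and 3 passed. Among single calls for DSS, Cenpa was lost under 15 of 27 settings, Gins1 under 16 of 26, and Mcm4 and Usp1 under 13 of 27; for the passive average, Chek1 was lost under 13 of 27 and Rad18 and Rrm2 under 9 of 27 each. A fit without 1 array leaves 1 array in its group, and the counts from such fits are not set beside the shares of all genes. The cause of these changes was not tested.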

Other observations

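Differentiated cells of the colon were followed with the same fit. Of 8 markers of surface colonocytes, the absorptive cells at the crypt mouth, 5 were lower after DSS and none was higher (limma, Benjamini-Hochberg adjusted p under 0.05 over all genes), with a median difference of -0.25. Their mean ranged over 12.37 to 12.68 in DSS arrays and 12.72 to 12.92 in untreated arrays, without overlap. Aqp8, a water channel of these cells, averaged 11.02 after DSS and 11.98 untreated, and it fell by 0.96 (adjusted p 3.588e-05). Slc26a3, their chloride and bicarbonate exchanger, fell by 0.47 (adjusted p 0.00165). Of 6 goblet cell markers 1 was higher and 1 lower: Tff3, a secreted mucosal repair peptide, rose by 0.38 ± 0.07 (adjusted p 0.00366), and Clca1, a secreted protease of mucus, fell by 0.27 (adjusted p 0.0287). Without the untreated group with both SIgA sources, 4 surface markers were lower, Aqp8 and Slc26a3 among them, and Tff3 was higher (0.38, adjusted p 0.022), while Clca1 did not pass (adjusted p 0.134). No surface or goblet marker passed for the averaged passive difference.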
